A study of Homo sapiens with 18 samples.

Results

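Cells of the human line HAIR-M that had been in copanlisib for 12 h were compared with cells in the drug for 8 h, across all genes measured by RNA sequencing. HAIR-M is an established B cell line from MZL, as the labels put it, which stands for marginal zone lymphoma. The 6 libraries, 3 from each time and all at 5 nM copanlisib, were taken by the drug and time in their labels from the 18 libraries of the series. The other 12 came from the same line, 3 from 4 h of copanlisib and 3 each from 4, 8 and 12 h of DMSO, the drug's solvent. The labels give no genetic change in any group, and no library from before treatment was analysed here. The labels do not say that replicates were separate cultures, so p-values measure only how far these libraries spread, and that spread may be technical. Of 35239 genes with any read, 16122 passed a filter on low counts and were tested.

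Copanlisib blocks class I phosphoinositide 3-kinases (PI3K), mainly the alpha and delta forms. In B cells these kinases pass signals from the B cell receptor to the kinase AKT. AKT keeps FOXO transcription factors out of the nucleus and supports glucose use, protein synthesis and entry into the cell cycle. The comparison asks what changes in drug-treated cells between 8 and 12 h. The DMSO libraries of the same times show what changes over the same hours without the drug.

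The 12 h copanlisib libraries held 15741233 to 19025252 reads on genes and the 8 h copanlisib libraries 20176516 to 25566761. Reads on no gene were 10.0% to 11.5% of all reads at 12 h and 12.4% to 13.03% at 8 h of copanlisib. Mitochondrial genes took 9.96% to 10.5% of the gene reads at 12 h and 9.496% to 9.82% at 8 h. In both measures the 2 times lie apart, and their part in the results was not tested. All 8 B cell markers were detected, at a summed level of 2217 to 2274 CPM at 12 h and 1963 to 1994 CPM at 8 h. CPM are gene reads scaled to the size of the library. Of 16 T and NK cell markers 5 had no read in the 6 libraries, of 10 myeloid markers 2, of 13 stromal and epithelial markers 2 and of 13 retina markers 6. Retina was checked because the labels' extraction protocol speaks of retinas. The summed levels at 12 h and 8 h were 13.5 to 15.3 and 17.6 to 17.7 CPM for T and NK cells, and 8.89 to 11.5 and 8.16 to 8.33 CPM for myeloid cells. They were 174 to 182 and 165 to 168.5 CPM for stroma and epithelium, and 11.6 to 13.99 and 9.62 to 10.98 CPM for retina. Among the 4 h copanlisib libraries, replicates 1 and 2 differed most from the rest, with 8.73% and 5.22% unmapped reads against 1.74% to 2.82% in the other 16 libraries. They enter the results through the shared filter, scaling and estimate of the spread, and through the 4 h levels.

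Between 8 and 12 h of copanlisib, transcripts of heat shock proteins and of glycolysis and hypoxia fell, while those of DNA replication, mitosis and the interferon response rose. By edgeR's quasi-likelihood test over all 18 libraries, at an adjusted p under 0.05, 2280 genes were higher at 12 h (14.1%) and 1877 lower (11.6%), 4157 in all (25.8%). The changes were mostly small. The median absolute log2 fold change of these 4157 genes was 0.33, and 256 passed with at least a 2-fold change, 60 higher and 196 lower. Of the 256 genes, 233 had an average log2 CPM under 3, and of the 23 above it 4 were higher and 19 lower. Without any 1 of the 6 libraries, 3026 to 3380 genes passed. In bulk RNA, fewer cells of a kind and less RNA per cell cannot be told apart.

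**Figure D1:**
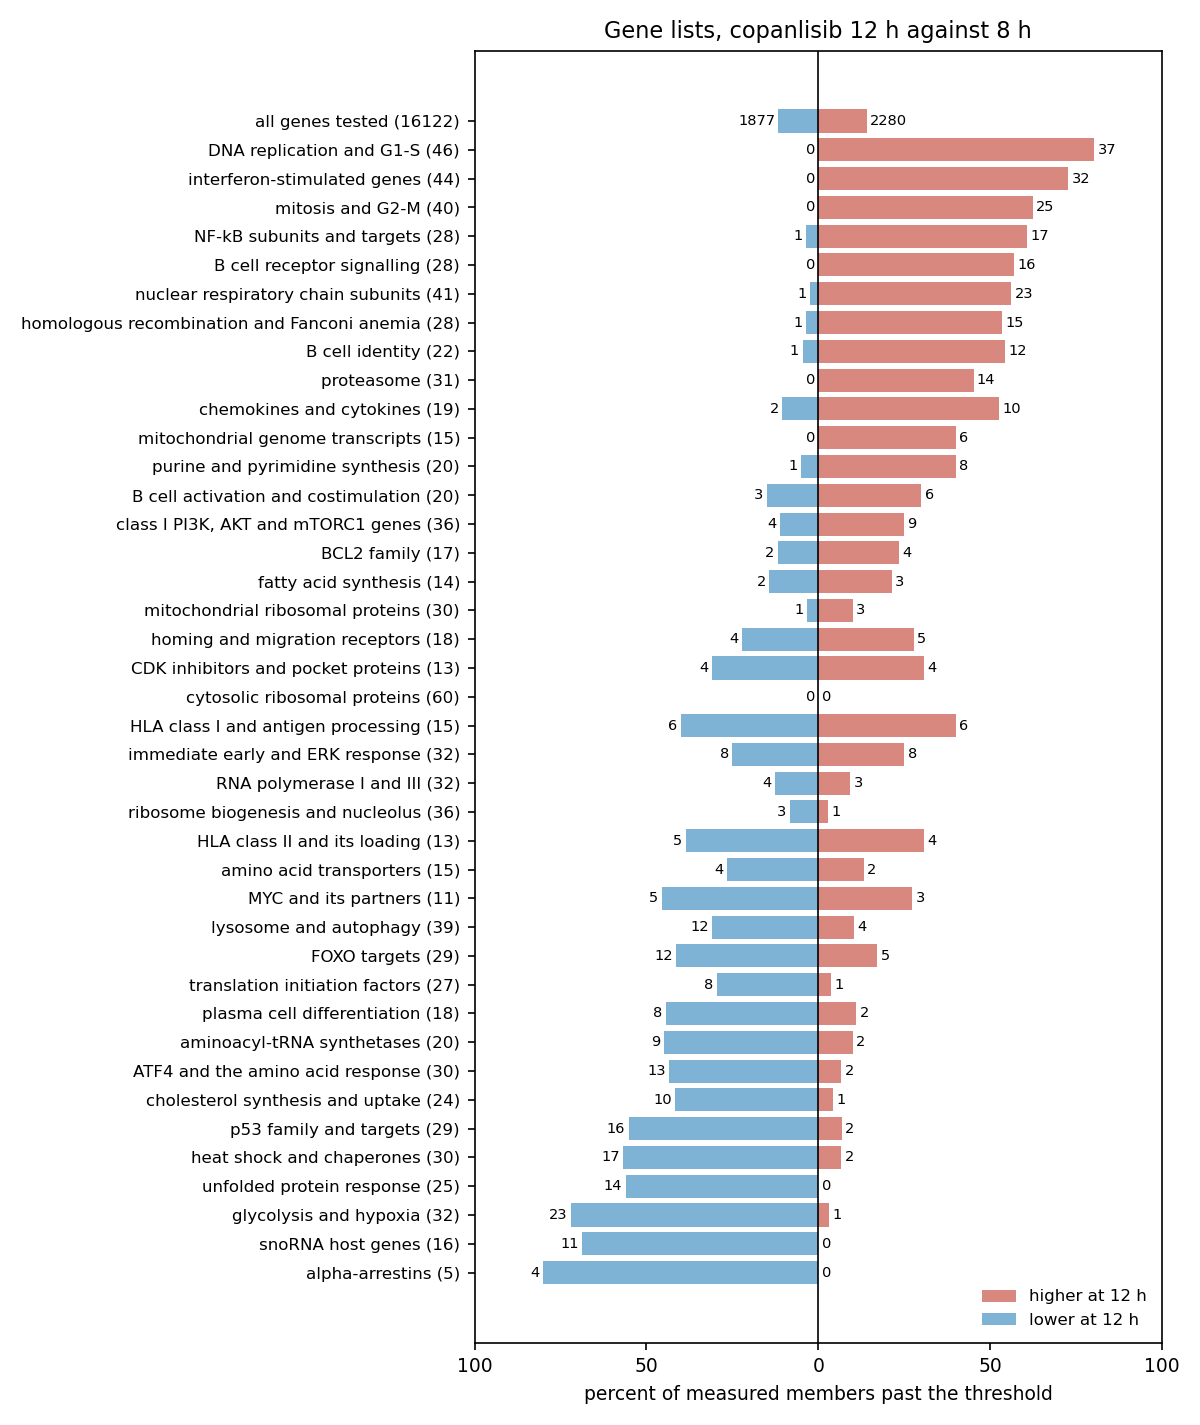
Share of the measured members of each gene list that passed the edgeR test in copanlisib at 12 h against 8 h, with the number of members that were higher (right) or lower (left) beside each bar and the number measured in brackets. Of the DNA replication and G1-S list 37 of 46 members were higher, and of glycolysis and hypoxia 23 of 32 were lower, against 14.1% higher and 11.6% lower of all genes tested.

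Genes of the heat-inducible chaperone system were among those that fell most at an average log2 CPM of 3 or more. HSPA1A, which encodes the inducible chaperone HSP70, was at 43.6, 46.8 and 44.4 CPM in the 12 h libraries and 140.5, 149 and 139 CPM in the 8 h libraries of copanlisib. All 3 libraries of 12 h lay below all 3 of 8 h, an arrangement found in 21.8% of all genes tested, and 23.6% had it the other way. On the log2 scale HSPA1A changed by −1.67 ± 0.05 (SE, edgeR adjusted p = 3.4e-18). DNAJB1, the HSP40 co-chaperone that hands clients to HSP70, was at 101, 98.1 and 93.9 CPM at 12 h and 312, 308 and 299 CPM at 8 h of copanlisib. The DNAJB1 groups did not overlap either, and its change of −1.65 ± 0.04 (edgeR adjusted p = 4.6e-20) was close to that of HSPA1A. HSPA6, an HSP70 form made almost only under stress, fell by 2.23 ± 0.09 on the log2 scale, with 9.45, 9.09 and 11.2 CPM at 12 h and 47.5, 45.8 and 47.0 CPM at 8 h. BAG3, an HSP70 co-chaperone that leads proteins to autophagy, fell by 1.67 ± 0.07, and HSPH1, which recharges HSP70 with nucleotide, by 0.92 ± 0.06. SERPINH1, the collagen chaperone of the endoplasmic reticulum, fell by 1.46 ± 0.06, and HSF4, a heat shock transcription factor, by 1.36 ± 0.10. HSPA1A and HSPA1B are near-identical copies and HSPA6 is similar to them, so reads of these genes can be lost or misplaced.

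Of 30 measured genes of heat shock and chaperones, 17 were lower at 12 h, 2 were higher and 11 did not pass, with a median log2 fold change of −0.20 beside −0.01 for all genes tested. The higher members were CCT3 at 0.21 and CCT6A at 0.12, both subunits of the CCT chaperonin that folds actin and tubulin. The mitochondrial chaperonin HSPD1 did not pass (−0.10 ± 0.04, edgeR adjusted p = 0.087). In DMSO at 12 h against 8 h, 19 of these 30 genes were lower and 1 was higher, with a median of −0.22. Among all genes tested 11.6% were lower and 14.1% higher in copanlisib, and 12.4% and 13.4% in DMSO. HSPA1A was at 39.9, 44.1 and 41.1 CPM in the 12 h and 144, 143 and 139.9 CPM in the 8 h DMSO libraries. Its difference in log2 change between copanlisib and DMSO was 0.10 ± 0.08 (edgeR adjusted p = 0.81). At 4 h of copanlisib it was at 124, 123 and 139 CPM, below all 3 libraries of 8 h and far above all 3 of 12 h.

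Heat shock genes are known to be switched on through heat shock elements, short inverted repeats to which trimers of the factor HSF1 bind. The promoters shown here and below were picked among called list members that hold the element in question. Members with larger changes but no match, or no promoter at hand, were passed over. The promoters of the called list members HSPA6 and CHORDC1 hold this element. CHORDC1 encodes an HSP90 co-chaperone and fell by 0.55 ± 0.06. They are given from 250 bases before to 50 bases after the gene start, from RefSeq (GRCh38.p14), with capitals where GAA, TTC and GAA, or on the other strand TTC, GAA and TTC, follow each other with any 2 bases between them. HSPA6 is at chr1:161524290-161524589 on the plus strand and CHORDC1 at chr11:90223000-90223299 on the minus strand.
HSPA6: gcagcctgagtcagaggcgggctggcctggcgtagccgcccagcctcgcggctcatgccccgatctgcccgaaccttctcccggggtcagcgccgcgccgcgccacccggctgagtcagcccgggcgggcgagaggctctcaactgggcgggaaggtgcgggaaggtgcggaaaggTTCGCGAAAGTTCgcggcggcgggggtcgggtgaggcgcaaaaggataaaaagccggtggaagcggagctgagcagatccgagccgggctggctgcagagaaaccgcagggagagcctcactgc
CHORDC1: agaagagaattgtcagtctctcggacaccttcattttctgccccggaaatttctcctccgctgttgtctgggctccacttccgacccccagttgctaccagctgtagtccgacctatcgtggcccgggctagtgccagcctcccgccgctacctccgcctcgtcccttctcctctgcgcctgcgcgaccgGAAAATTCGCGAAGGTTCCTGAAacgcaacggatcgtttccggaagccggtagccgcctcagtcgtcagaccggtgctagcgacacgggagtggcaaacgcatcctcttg
The HSPA6 promoter holds 1 match and the CHORDC1 promoter 3 that overlap. A match was found in 5 of the 27 promoters of the list that the table holds (18.5%) and in 0.487% of all 27305 promoters of the table, or 0.331% of those of the genes tested. A match is a description of the letters and not evidence of binding.

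Genes of glucose breakdown and of the hypoxia response fell together. PGK1, which makes ATP in glycolysis and is a classical target of hypoxia-inducible factor (HIF), was at 501, 492 and 479 CPM at 12 h and 1059, 1061 and 1029 CPM at 8 h of copanlisib. The groups lay far apart, and PGK1 fell, at −1.10 ± 0.04 on the log2 scale (edgeR adjusted p = 2.4e-17). BNIP3, a HIF target that marks mitochondria for removal, was at 12.8, 11.3 and 10.5 CPM at 12 h and 27.5, 27.2 and 29.6 CPM at 8 h, a change of −1.28 ± 0.09 (edgeR adjusted p = 1.2e-10). ADM, the secreted peptide adrenomedullin, fell by 1.52 ± 0.15 and PFKFB4, a regulator of glycolytic flux, by 1.23 ± 0.14. Of the 32 measured members, 23 were lower, 1 was higher and 8 did not pass, with a median log2 fold change of −0.57. The higher member was HIF1A, the regulated subunit of HIF, at 0.19 ± 0.05. In DMSO 24 members were lower and 1 higher, with a median of −0.55. Lower shares over all genes tested were 11.6% in copanlisib and 12.4% in DMSO, and higher shares 14.1% and 13.4%. No member passed the test of the difference between the agents with all 18 libraries. With the spread of the 12 libraries of 8 and 12 h alone, 2 had a higher change in copanlisib and 2 a lower one. ADM (0.87 ± 0.23, edgeR adjusted p = 0.031) and HK2 (0.31 ± 0.08) were higher. PGK1 (−0.26 ± 0.05, edgeR adjusted p = 5.4e-04) and ALDOA (−0.18 ± 0.05) were lower. Over all genes of that fit the shares were 0.901% and 0.831%. After 4 h of copanlisib BNIP3 was at 56.1, 52.4 and 50.6 CPM, above all libraries of 8 and 12 h. MXI1, a MYC antagonist that HIF also switches on, fell by 1.34 ± 0.10 between 8 and 12 h.

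Hypoxia response elements share the core ACGTG. The promoters of BNIP3 (chr10:131981874-131982173, minus strand) and PGK1 (chrX:78103998-78104297, plus strand) are shown with ACGTG or its reverse complement CACGT in capitals. This core is also part of the E-box CACGTG, where both strands match and overlap.
BNIP3: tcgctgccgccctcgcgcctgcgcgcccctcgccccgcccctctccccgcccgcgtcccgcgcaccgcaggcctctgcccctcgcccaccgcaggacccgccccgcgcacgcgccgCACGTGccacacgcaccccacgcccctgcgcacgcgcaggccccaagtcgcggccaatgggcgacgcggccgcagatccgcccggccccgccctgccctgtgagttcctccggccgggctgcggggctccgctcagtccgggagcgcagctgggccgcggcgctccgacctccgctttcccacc
PGK1: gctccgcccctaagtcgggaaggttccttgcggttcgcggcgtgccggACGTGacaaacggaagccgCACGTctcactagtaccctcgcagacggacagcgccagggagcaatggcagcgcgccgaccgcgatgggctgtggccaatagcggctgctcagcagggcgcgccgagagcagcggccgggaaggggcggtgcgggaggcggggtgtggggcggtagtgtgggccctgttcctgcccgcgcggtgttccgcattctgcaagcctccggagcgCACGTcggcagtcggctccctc
The core was in 13 of 28 promoters of the list (46.4%), against 21.6% of all promoters in the table and 26.7% of those of the genes tested. Such a short core occurs often, and these matches say nothing of HIF binding in these cells.

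**Figure D2:**
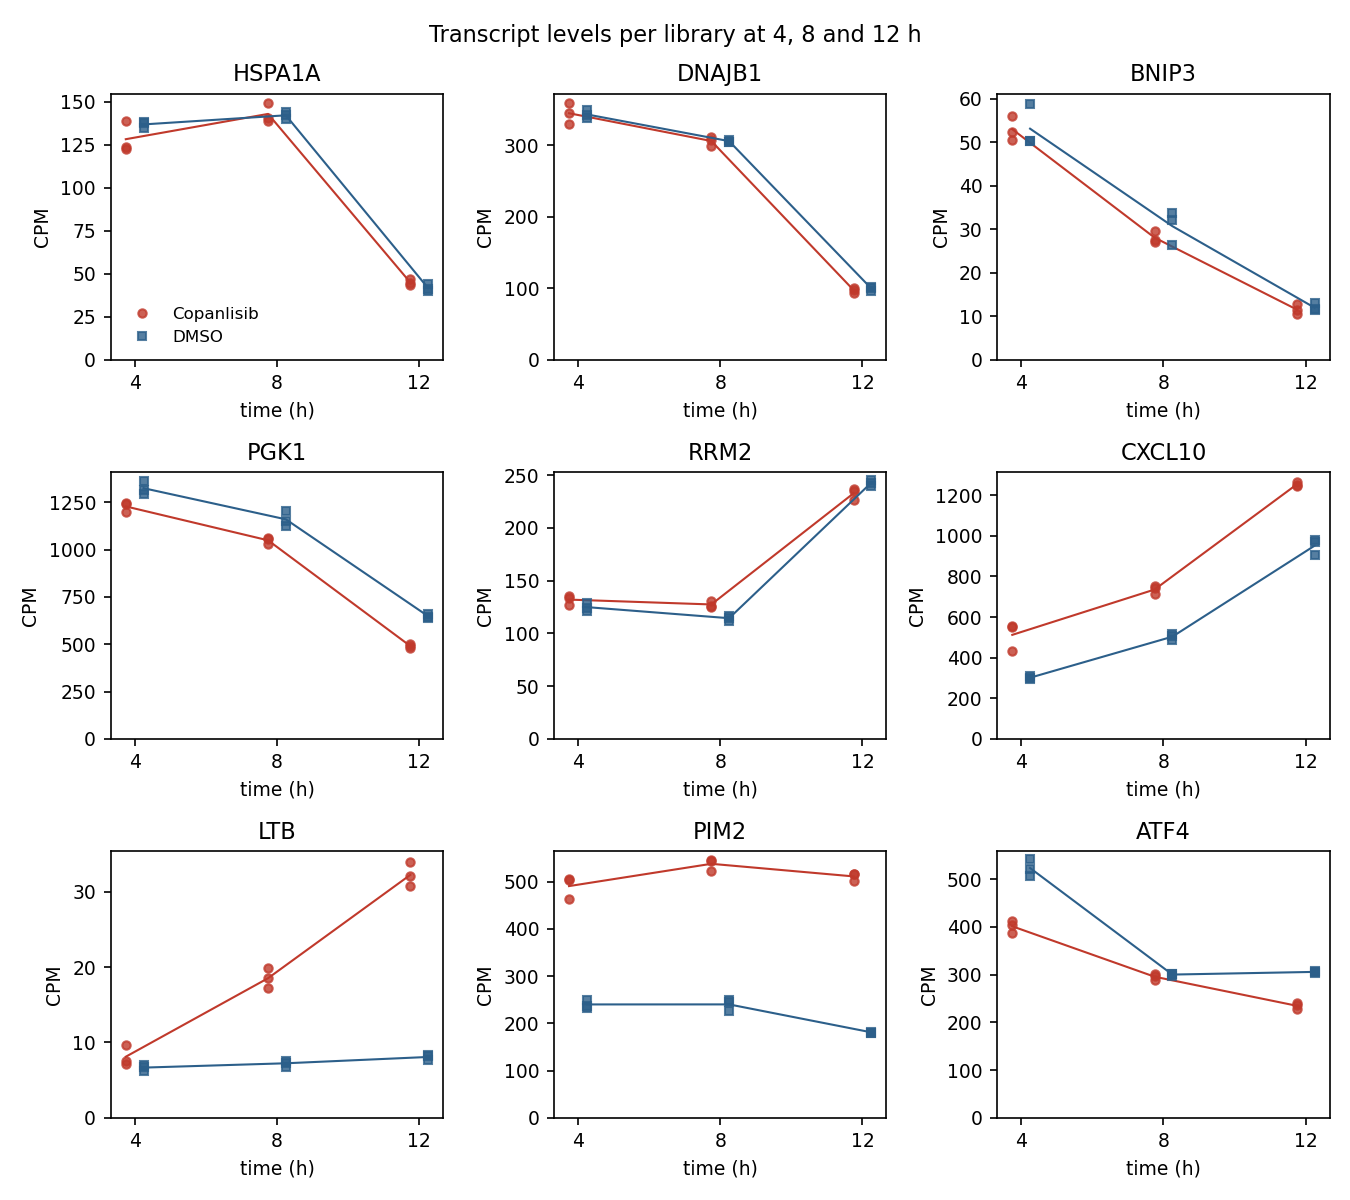
CPM of 9 genes (vertical axes, from 0) in each library at 4, 8 and 12 h (horizontal axes) with copanlisib (red circles) or DMSO (blue squares), with lines through the group means. The means of HSPA1A and DNAJB1 differ less between 4 and 8 h than between 8 and 12 h with both agents, while LTB is at 30.7 to 33.9 CPM at 12 h of copanlisib and below 10 CPM in the DMSO libraries.

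Genes of DNA replication rose. RRM2, the subunit of ribonucleotide reductase that limits the making of DNA building blocks, was at 237, 226.5 and 235 CPM at 12 h and 131, 126 and 125 CPM at 8 h of copanlisib. The groups did not overlap, and RRM2 rose by 0.87 ± 0.04 on the log2 scale (edgeR adjusted p = 2.0e-14). CCNE2, a cyclin that drives entry into S phase, rose by 0.75 ± 0.10 and its relative CCNE1 by 0.57 ± 0.06. TK1 and TYMS, which make thymidine nucleotides, rose by 0.49 ± 0.08 and 0.41 ± 0.04. Of 46 measured genes of DNA replication and G1-S, 37 were higher, none was lower and 9 did not pass, with a median log2 fold change of 0.30. The cyclin CCND2 was among those that did not pass (0.05 ± 0.04, edgeR adjusted p = 0.36), as was CCND3 (0.17 ± 0.07, edgeR adjusted p = 0.057). Of 28 genes of homologous recombination and Fanconi anemia, 15 were higher and 1 was lower, led by FANCI, which helps to clear DNA crosslinks, at 0.72 ± 0.05. Of 40 genes of mitosis and G2-M, 25 were higher and none was lower, with a median of 0.25. In DMSO 20 of the 28 recombination and Fanconi genes were higher and 1 was lower. For mitosis and G2-M 23 of the 40 were higher in DMSO and none was lower. Beside these counts, 14.1% of all genes tested were higher and 11.6% lower in copanlisib, and 13.4% and 12.4% in DMSO. GTSE1, a microtubule-bound protein of G2 phase, rose by 0.60 ± 0.06 and the spindle motor KIF11 by 0.54 ± 0.07.

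The rise of replication genes was also present in DMSO, where it was larger for most of them. In DMSO 42 of the 46 were higher at 12 h and 1 was lower, with a median of 0.48 against 0.30 in copanlisib. The difference in change, copanlisib minus DMSO, was below 0 for 42 of the 46 members, with a median of −0.17, whereas it was below 0 for 47.6% of all genes tested. No member passed the test of the difference with the spread of all 18 libraries. RRM2 had a difference of −0.22 ± 0.06 (edgeR adjusted p = 0.27). CDC45, a part of the replicative helicase, was at 26.1, 25.5 and 28.1 CPM at 12 h and 19.5, 19.3 and 18.7 CPM at 8 h of copanlisib. With DMSO, CDC45 was at 34.0, 35.4 and 34.7 CPM at 12 h and 19.8, 19.1 and 16.8 CPM at 8 h. The difference in change for CDC45 was −0.42 ± 0.10 and did not pass (edgeR adjusted p = 0.10). With the spread taken from the 12 libraries of 8 and 12 h alone, 9 of the 46 members had a lower change with copanlisib than with DMSO at an adjusted p under 0.05, and CCND2 had a higher one. Over all genes of that fit the shares were 0.831% and 0.901%. Of the recombination and Fanconi list, 6 of 28 were lower in the same test and none was higher.

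Many promoters of replication genes hold E2F sites, through which E2F factors act at the start of S phase. DTL, which targets the licensing factor CDT1 for destruction, rose by 0.48 ± 0.06 and E2F2, itself an E2F factor, by 0.48 ± 0.08. Their promoters are at chr1:212035498-212035797 (plus strand) and chr1:23531184-23531483 (minus strand), with capitals for TTTCGCGC or TTTGGCGC or their reverse complements GCGCGAAA and GCGCCAAA.
DTL: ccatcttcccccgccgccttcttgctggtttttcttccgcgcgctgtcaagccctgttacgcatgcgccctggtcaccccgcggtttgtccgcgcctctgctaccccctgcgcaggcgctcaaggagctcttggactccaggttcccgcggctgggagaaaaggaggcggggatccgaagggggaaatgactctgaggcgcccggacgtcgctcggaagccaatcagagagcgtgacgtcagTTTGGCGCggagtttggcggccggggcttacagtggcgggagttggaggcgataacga
E2F2: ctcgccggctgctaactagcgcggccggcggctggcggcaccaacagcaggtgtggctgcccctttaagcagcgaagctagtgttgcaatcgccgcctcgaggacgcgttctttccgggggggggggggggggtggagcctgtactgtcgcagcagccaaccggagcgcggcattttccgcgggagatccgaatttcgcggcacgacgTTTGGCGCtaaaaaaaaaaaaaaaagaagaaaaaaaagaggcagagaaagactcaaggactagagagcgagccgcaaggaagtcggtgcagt
Each holds 1 match, and 12 of 39 promoters of the list hold at least 1 (30.8%), against 1.18% of all promoters in the table and 1.95% of those of the genes tested. Of the promoters of called members, 9 of 32 hold one (28.1%). These matches describe the letters, and whether E2F factors acted in these cells was not tested.

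Interferon-stimulated genes were higher at 12 h. CXCL10, a chemokine that draws activated T cells, was at 1264, 1245 and 1253 CPM at 12 h and 753, 742.5 and 712 CPM at 8 h of copanlisib. The groups did not overlap, and CXCL10 rose by 0.77 ± 0.06 (edgeR adjusted p = 3.5e-10). CXCL9, a chemokine of the same receptor, was at 298, 287 and 285 CPM at 12 h and 140.2, 140.2 and 139 CPM at 8 h (1.05 ± 0.06). HERC6 and IFI6, both switched on by type I interferon, rose by 0.75 ± 0.09 and 0.65 ± 0.09. Of 44 measured members, 32 were higher, none was lower and 12 did not pass, with a median of 0.31. In DMSO 25 were higher and 1 was lower, with a median of 0.28. The shares of all genes tested were 14.1% higher and 11.6% lower in copanlisib, and 13.4% and 12.4% in DMSO. No member passed the test of the difference with all 18 libraries. With the 12 of 8 and 12 h, 1 had a higher change in copanlisib, beside 0.901% of all genes of that fit.

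The interferon-stimulated response element is bound by STAT and IRF factors. Capitals mark GAAA, any 2 bases and GAAA, or the same on the other strand as TTTC and TTTC, in the promoters of CXCL10 (chr4:76023448-76023747, minus strand) and IFI27 (chr14:94110486-94110785, plus strand). IFI27 rose by 0.78 ± 0.22 at a low level of 1.92 to 2.28 CPM at 12 h and 1.05 to 1.32 CPM at 8 h, and without replicate 1 of 12 h its edgeR adjusted p was 0.056.
CXCL10: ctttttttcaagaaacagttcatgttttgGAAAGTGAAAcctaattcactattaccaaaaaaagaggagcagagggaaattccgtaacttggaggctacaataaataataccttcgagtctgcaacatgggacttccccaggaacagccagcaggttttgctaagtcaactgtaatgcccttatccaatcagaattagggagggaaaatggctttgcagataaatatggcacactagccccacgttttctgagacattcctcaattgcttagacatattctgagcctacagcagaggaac
IFI27: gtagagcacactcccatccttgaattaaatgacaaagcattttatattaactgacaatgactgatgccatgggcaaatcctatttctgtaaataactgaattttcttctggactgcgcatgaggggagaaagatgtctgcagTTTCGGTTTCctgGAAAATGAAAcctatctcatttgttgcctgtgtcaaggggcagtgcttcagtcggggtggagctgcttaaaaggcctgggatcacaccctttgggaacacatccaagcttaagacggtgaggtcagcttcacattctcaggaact
The element was in 20 of 34 promoters of the list (58.8%) and in 3.65% of all promoters in the table, or 2.96% of those of the genes tested. Binding of STAT or IRF factors in these cells was not tested.

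NF-kB and B cell genes also rose. NFKBIA, the inhibitor that NF-kB itself induces, was at 410, 376 and 379 CPM at 12 h and 243, 252 and 239 CPM at 8 h of copanlisib (0.66 ± 0.04, edgeR adjusted p = 1.6e-11). The cytokine TNF rose by 0.67 ± 0.07 and BIRC3, an inhibitor of cell death, by 0.48 ± 0.05. Of 28 measured NF-kB subunits and targets 17 were higher and 1 was lower, with a median of 0.24, and in DMSO 11 were higher and 1 was lower, with a median of 0.09. The lower member in copanlisib was NFKBIZ, a nuclear regulator of NF-kB, at −0.40 ± 0.08. Of 28 genes of B cell receptor signalling 16 were higher and none was lower, with a median of 0.16. In DMSO 14 of them were higher and none was lower, with a median of 0.18. Of all genes tested 14.1% were higher in copanlisib and 13.4% in DMSO. PTPN6, the phosphatase SHP-1 that restrains the receptor, rose by 0.66 ± 0.04, BANK1, a B cell scaffold protein, by 0.62 ± 0.07, and CD79B, a signalling chain of the receptor, by 0.48 ± 0.08. Of 22 genes of B cell identity 7 were higher in DMSO and none was lower. In copanlisib 12 were higher, among them SPIB, an ETS factor of B cells, at 0.64 ± 0.06. The only lower member was BACH2, a repressor of plasma cell fate, which was barely detected at 0.0627 to 0.207 CPM at 12 h and 0.479 to 0.590 CPM at 8 h. ID3, an inhibitor of E proteins, rose by 0.99 ± 0.07 and the homeobox factor MEOX1 by 1.05 ± 0.10.

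Most genes of the drug's own pathway did not pass, which also held for 11965 of all 16122 genes tested. Of 36 measured genes of class I PI3K, AKT and mTORC1, 9 were higher (25%), 4 were lower (11.1%) and 23 did not pass, with a median of −0.01. Of all genes tested 14.1% were higher and 11.6% lower, so the lower share was close to that of all genes and the higher share above it. In DMSO 5 of the 36 were higher and 7 lower. Of the catalytic subunits, PIK3CG (gamma) was at 11.4, 11.9 and 13.4 CPM at 12 h and 16.5, 15.9 and 16.1 CPM at 8 h, a change of −0.40 ± 0.08 (edgeR adjusted p = 5.1e-04). PIK3CD (delta), the main form in B cells, was at 551, 523 and 544 CPM at 12 h and 481, 469 and 481 CPM at 8 h (0.18 ± 0.05, edgeR adjusted p = 0.014). PIK3CA (alpha) and PIK3CB (beta) did not pass, at −0.13 ± 0.08 and −0.01 ± 0.06. SGK1, a kinase activated by PI3K signals, fell by 1.66 ± 0.27 at 0.502 to 0.778 CPM at 12 h and 1.82 to 2.70 CPM at 8 h. Without replicate 1 of 12 h or replicate 2 of 8 h, PIK3CD did not pass (edgeR adjusted p at most 0.056).

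FOXO targets were more often lower than higher. Of 29 measured members 12 were lower (41.4%), 5 were higher (17.2%) and 12 did not pass, with a median of −0.18. Of all genes tested 11.6% were lower and 14.1% higher, so the higher share was close to that of all genes. IRS2, an adaptor of insulin receptor signals, fell by 0.87 ± 0.18. In DMSO 9 members were lower and 3 higher, with a median of −0.11. Of 32 immediate early and ERK response genes 8 were higher and 8 lower (25% each), and in DMSO 10 were higher and 7 lower. Among those lower in copanlisib were the AP-1 subunits FOS at −1.57 ± 0.18 and FOSB at −1.64 ± 0.19. Both were at no more than 4.60 CPM in any of the 6 libraries. MYC, the growth factor-responsive transcription factor, was at 106, 98.7 and 105 CPM at 12 h and 113, 115 and 118 CPM at 8 h. Its change of −0.16 ± 0.05 passed (edgeR adjusted p = 0.013) but not without replicate 2 of 12 h or replicate 3 of 8 h (at most 0.089).

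Genes of the unfolded protein response, of cholesterol and hosts of small nucleolar RNAs were more often lower than higher, and those of the respiratory chain more often higher. The same held in DMSO. Of all genes tested 14.1% were higher and 11.6% lower in copanlisib. Of 25 genes of the unfolded protein response 14 were lower and none was higher, with HSPA5, the main chaperone of the endoplasmic reticulum, at 255, 253 and 240.4 CPM at 12 h and 361, 366 and 369.7 CPM at 8 h (−0.55 ± 0.04, edgeR adjusted p = 4.6e-10). Of 24 genes of cholesterol synthesis and uptake 10 were lower and 1 was higher, with HMGCS1, an early enzyme of the route, at −0.28 ± 0.05, and 6 were lower without replicate 3 of 12 h or replicate 2 of 8 h. Of 14 genes of fatty acid synthesis 3 were higher (21.4%) and 2 lower (14.3%), not far from the shares of all genes, with a median of 0.03. The desaturase SCD was one of the lower ones at −0.53 ± 0.04. Of 16 host genes of small nucleolar RNAs 11 were lower, led by SNHG7 at −0.60 ± 0.10, and 6 and 7 were lower without replicate 1 of 12 h and without replicate 2 of 8 h. Of 41 nuclear genes of the respiratory chain 23 were higher and 1 was lower, with ATP5MC1, a subunit of the ATP synthase ring, at 0.45 ± 0.06. Of these 41 genes, 14 were higher without replicate 1 of 12 h, 15 without replicate 3 of 8 h and 36 with the 12 libraries of 8 and 12 h alone. In DMSO 17 of the 25 genes of the unfolded protein response were lower and none was higher. For cholesterol 14 of 24 were lower and 1 was higher in DMSO, and 13 of the 16 host genes were lower. Of the respiratory chain genes 16 were higher in DMSO and none was lower.

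The time change in copanlisib was then set beside that in DMSO, which shares no library with it. In DMSO at 12 h against 8 h 4151 genes passed (25.7%), 2155 higher (13.4%) and 1996 lower (12.4%). Both changes passed for 2649 genes, 63.7% of the copanlisib genes and 63.8% of the DMSO genes, and the direction was the same for 2644 of them and opposite for 5. Of the 4157 genes that passed in copanlisib, 96.0% had a DMSO change of the same sign at any p. Across the 9894 genes whose average log2 CPM was 3 or more the log2 changes had a Pearson r of 0.858, and across all 16122 genes 0.64. This is a description across genes of 1 line, which are not independent.

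**Figure D3:**
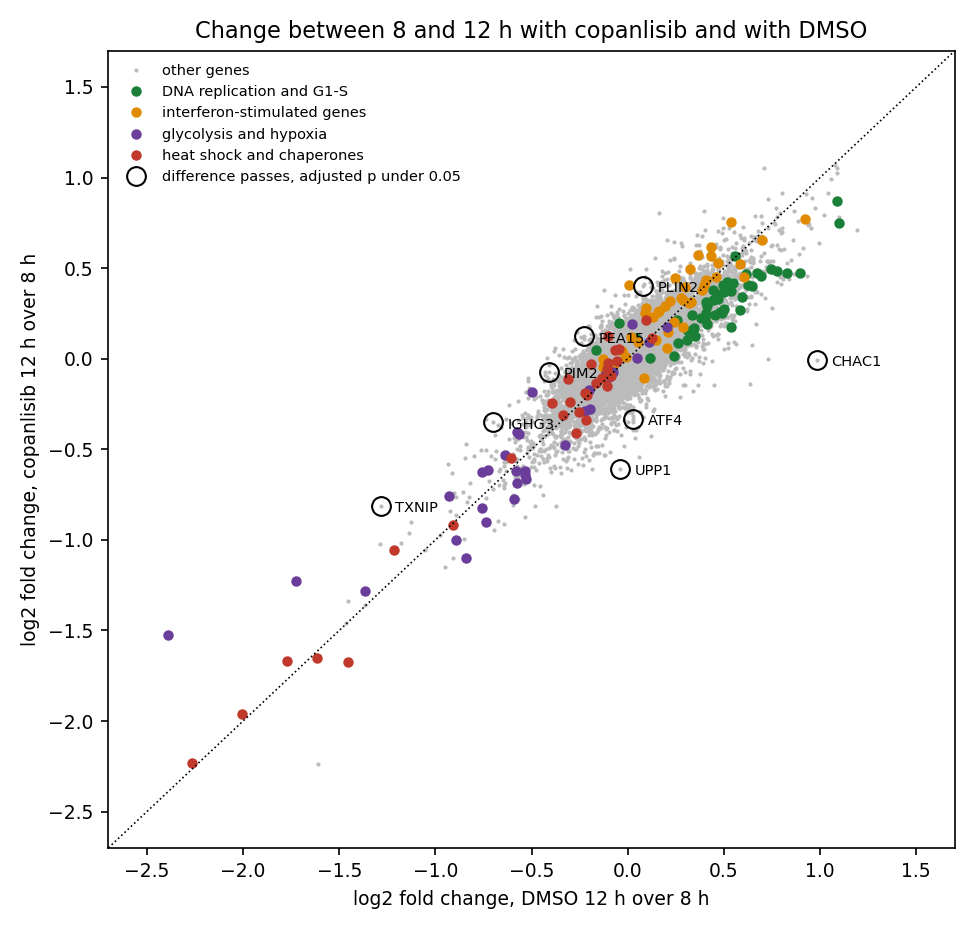
Log2 fold change of 12 h over 8 h with copanlisib (vertical) and with DMSO (horizontal) for 9894 genes whose average log2 CPM was 3 or more, with 4 gene lists in colour and rings around 8 of the genes whose difference passed by edgeR. Most points lie along the dotted line of equal change, and the green replication genes lie mostly below it.

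The change over time differed between copanlisib and DMSO for 9 genes by edgeR's test of the difference with all 18 libraries (0.0558% of those tested), 6 with a higher (0.0372%) and 3 with a lower (0.0186%) change in copanlisib. At an unadjusted p under 0.05 there were 1196 genes, or 7.42%. ATF4, the transcription factor of the amino acid stress response, was at 240.5, 236 and 228 CPM at 12 h and 288, 302 and 297 CPM at 8 h of copanlisib. The DMSO libraries had 303, 308 and 306 CPM at 12 h and 302, 301 and 298 CPM at 8 h. It fell with copanlisib (−0.33 ± 0.04, edgeR adjusted p = 5.6e-07), changed by 0.03 ± 0.04 with DMSO, and the difference was −0.36 ± 0.06 (edgeR adjusted p = 0.015). CHAC1, an ATF4 target that breaks down glutathione, was at 5.15, 4.08 and 3.68 CPM at 12 h and 4.26, 4.30 and 4.39 CPM at 8 h of copanlisib. For CHAC1 the DMSO libraries had 12.0, 12.0 and 12.1 CPM at 12 h and 5.92, 6.12 and 6.25 CPM at 8 h. It rose with DMSO (0.98 ± 0.11), and the difference was −0.99 ± 0.17 (edgeR adjusted p = 0.025). UPP1, which breaks down uridine, fell with copanlisib by 0.61 ± 0.08 and changed by −0.04 ± 0.08 with DMSO.

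The 5 genes described here with a higher change in copanlisib fell with DMSO or rose with the drug. PIM2, a survival kinase of lymphoid cells, was at 516, 502 and 516 CPM at 12 h and 545, 546 and 523 CPM at 8 h of copanlisib. In DMSO it was at 180.4, 180.3 and 182 CPM at 12 h and 249, 226 and 246 CPM at 8 h, which gave a difference of 0.33 ± 0.06 (edgeR adjusted p = 0.037). PEA15, a regulator of ERK and of death receptors, changed by 0.12 ± 0.05 with copanlisib and −0.23 ± 0.05 with DMSO. Its copanlisib change did not pass without replicate 1 of 12 h, replicate 1 of 8 h or replicate 3 of 8 h (edgeR adjusted p at most 0.272). PLIN2, a coat protein of lipid droplets, rose with copanlisib (0.40 ± 0.04) and changed by 0.08 ± 0.04 with DMSO. TXNIP, which limits glucose uptake and is a FOXO target, fell less with copanlisib (−0.81 ± 0.06) than with DMSO (−1.28 ± 0.07), and so did IGHG3, an antibody constant region with close copies (−0.35 ± 0.04 and −0.70 ± 0.04).

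**Figure D4:**
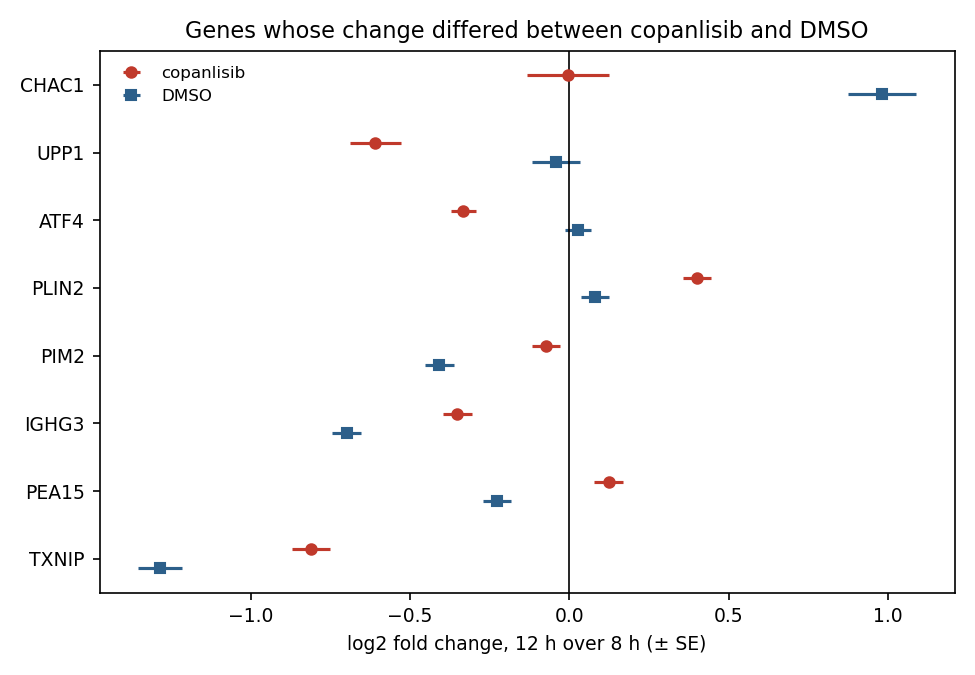
Log2 fold change of 12 h over 8 h with its SE for 8 of the genes whose change differed by edgeR, with copanlisib (red circles) and DMSO (blue squares). The copanlisib point is left of the DMSO point for CHAC1, UPP1 and ATF4 and right of it for the other 5.

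The count of such differences depended on which libraries were fitted, which sets the spread and also the filter and scaling. With the 12 libraries of 8 and 12 h alone, where the biological coefficient of variation was 0.0289 in place of 0.05, 273 of 15767 genes passed (1.73%), 142 with a higher change in copanlisib and 131 with a lower one. All 9 genes were among them. Leaving out only the pair of 4 h libraries that stood apart, which was chosen after seeing the data, gave 176. LTB, the cytokine lymphotoxin beta, was at 32.0, 30.7 and 33.9 CPM at 12 h and 18.5, 19.8 and 17.2 CPM at 8 h of copanlisib. In DMSO it was at 8.19, 8.38 and 7.64 CPM at 12 h and 6.80, 7.33 and 7.57 CPM at 8 h. Its difference of 0.64 ± 0.14 did not pass with 18 libraries (edgeR adjusted p = 0.080) and passed with 12 (0.0014). LTA, lymphotoxin alpha, went the other way, with a smaller rise in copanlisib (0.46 ± 0.07) than in DMSO (0.93 ± 0.07) and an edgeR adjusted p of 0.079 with 18 libraries and 0.0024 with 12. TNFAIP2, an NF-kB target, rose in copanlisib (0.45 ± 0.06) and changed by 0.09 ± 0.06 in DMSO, at 0.17 and 6.5e-07. Of 36 genes of ribosome biogenesis and the nucleolus, 6 had a higher change in copanlisib and none a lower one with 12 libraries. Among all genes of that fit 0.901% had a higher change and 0.831% a lower one. In copanlisib 1 of the 36 was higher and 3 were lower at 12 h (median −0.03), while in DMSO 20 were lower and none was higher (median −0.17). The shares of all genes tested were 14.1% higher and 11.6% lower in copanlisib, and 13.4% and 12.4% in DMSO. Neither share of this list in copanlisib (2.78% higher, 8.33% lower) was above that of all genes. Of 30 genes in the ATF4 list, which covers amino acid stress, 4 had a lower change in copanlisib with 12 libraries and none a higher one. ATF4 and CHAC1, described above, were among these 4, so the count is not separate from their results.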

How the data were processed

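RNA was sequenced from 18 HAIR-M libraries, and the authors deposited raw counts per gene for each (reads on 60483 gene identifiers, without strand and per strand). Per the submitters' processing notes, CASAVA 1.7, STAR 2.5.2b and hg38 were used. The annotation version was not given in the sources used here. A kit without strand marking is named by the labels' protocols, yet column 4 held 94.3% to 95.3% of the stranded reads and was used, with the column without strand as an alternative. Library sizes and tests exclude the 4 summary lines (unmapped 1.74% to 8.73% of reads, several places 9.21% to 10.1%, no gene 10.0% to 13.03%, ambiguous 2.04% to 2.45%). Reads at several places were not counted, so near-identical copies (HSPA1A and HSPA1B, HLA and antibody genes, CCL4L2) are uncertain.

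Counts were filtered with filterByExpr, scaled by TMM and fitted with edgeR 4.0.16 in R 4.3.3 (1 mean per group, 18 libraries, glmQLFTest, two-sided, Benjamini-Hochberg over 16122 genes). Scripts were tested on simulated data. CPM use TMM-scaled library sizes, except for marker sums. The SE is the log2 fold change over the square root of F. Named genes were the 12 highest and 12 lowest protein-coding genes (adjusted p under 0.05, average log2 CPM of at least 3, times not overlapping), up to 4 called members per list, fixed genes, and up to 6 each way for the difference. IGHG3, CDC45, LTA, TNFAIP2, HSPH1, HSPD1, DTL, E2F2, CHORDC1, HIF1A, NFKBIZ, CCT3 and CCT6A fall outside the rule and were chosen after their values were seen. The comparison and the 40 gene lists were chosen with earlier results of these data known. No replicates agreed within sampling noise (chi-square per gene of 1.52 or more). Same-numbered libraries did not deviate together, so replicate numbers were not used as pairs. Alternatives were DESeq2 1.42.0, limma-voom 3.58.1, other scaling, no filter, fewer libraries, a replicate block and stricter thresholds. Some genes that the rule names are not reported here.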

Additional observations from a re-analysis of the deposited data

Results flagged for a closer look

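For 9 genes the change between 8 and 12 h differed between copanlisib and DMSO by edgeR's test of the difference itself. The log2 change was lower with copanlisib by a difference of −0.99 for CHAC1, −0.57 for UPP1 and −0.36 for ATF4. It was higher by 0.47 for TXNIP, 0.35 for PEA15, 0.35 for IGHG3, 0.33 for PIM2 and 0.32 for PLIN2. These 8 genes kept their sign when any 1 of the 12 libraries of 8 and 12 h was left out, but 0 to 5 of the 9 passed in such fits.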

How the results depend on the processing

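For copanlisib at 12 h against 8 h, 4157 genes passed, and 3026 to 3380 with 1 library left out. At an adjusted p under 0.01 there were 2567, and with at least a 2-fold change 256. In DMSO 4151 passed, 3170 to 3446 with 1 library left out, 2646 at an adjusted p under 0.01 and 229 with at least a 2-fold change. Scaling, the filter, the strand column, limma-voom, DESeq2 and fits of 12 or 6 libraries moved these counts by less than 1.5 times. The difference, 9 genes, was the least stable count: 35 without a filter, 5 without strand, 26 by DESeq2, 273 with 12 libraries, 176 with 16, and 0 at an adjusted p under 0.01 or with a 2-fold limit. With 1 library left out it was 0 to 5: 5 without replicate 2 of DMSO 8 h, 2 without replicate 1 of copanlisib 12 h, 1 without replicate 1 of copanlisib 8 h, and 0 without any of the others. The causes were not tested. With the replicate number as a block, 4172, 4149 and 10 genes passed, and same-numbered copanlisib libraries had correlations of 0.0055 to 0.088, so the numbers do not show a pairing. Of 199 named genes called in copanlisib, 38 lost the call in at least 1 alternative at the same threshold, and no called result reversed its direction. Changes near 0 that did not pass could cross 0 with 1 library left out, such as PIK3CB (−0.05 to 0.03) and CHAC1 (−0.16 to 0.11) in copanlisib. Depth limits genes of low level: 233 of the 256 genes with a 2-fold change had an average log2 CPM under 3.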

Other observations

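Other gene groups moved between 8 and 12 h of copanlisib as well, where 14.1% of all genes tested were higher and 11.6% lower. Of 29 measured p53 family members and targets, 16 were lower and 2 higher, with PLK2, a stress-induced kinase, at −0.86 ± 0.10, and RRM2B, the p53-induced form of ribonucleotide reductase, at −0.48 ± 0.05, while RRM2 rose. TP53I3, an oxidoreductase, was one of the higher members at 0.81 ± 0.10. In DMSO 11 were lower and 3 higher. Of 18 genes of plasma cell differentiation 8 were lower (44.4%) and 2 higher (11.1%), and in DMSO 6 were lower and 2 higher. JCHAIN, which joins antibody units, was at 153, 165 and 169 CPM at 12 h and 256, 255 and 244 CPM at 8 h (−0.63 ± 0.06, edgeR adjusted p = 9.9e-09), and the plasma cell factor PRDM1 fell by 0.30 ± 0.07. With 18 libraries no plasma cell gene passed the test of the difference between copanlisib and DMSO. With the 12 of 8 and 12 h, JCHAIN fell less in copanlisib (difference 0.285 ± 0.055, edgeR adjusted p = 0.0013). XBP1 went the other way in that fit, with a difference of −0.23 ± 0.05.

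Within HLA class II, 5 of 13 genes were lower (38.5%) and 4 higher (30.8%), beside 11.6% and 14.1% of all genes tested. In DMSO 6 of the 13 were lower and 1 was higher. HLA-DQB1 fell by 0.56 ± 0.05 and HLA-DOB, which tempers peptide loading, rose by 0.55 ± 0.09, and HLA read counts are uncertain for lack of unique positions. Of 31 proteasome genes 14 were higher (45.2%) and none was lower, and in DMSO 7 were higher and none was lower. Of 39 genes of lysosome and autophagy 12 were lower (30.8%) and 4 higher (10.3%), and in DMSO 12 were lower and 2 higher. The protease CTSD fell by 0.50 ± 0.08. FABP3, a fatty acid carrier, had the lowest log2 change of the genes named by rank (−2.24 ± 0.14), with 2.02, 1.505 and 2.13 CPM at 12 h and 8.86, 9.28 and 8.86 CPM at 8 h of copanlisib. With DMSO, FABP3 was at 3.68, 3.83 and 3.17 CPM at 12 h and 10.2, 9.75 and 12.9 CPM at 8 h, and the difference did not pass (−0.63 ± 0.20, edgeR adjusted p = 0.37).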
